A study of Drosophila melanogaster with 2 samples.

Results

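CHES-1-like (FBgn0029504) is an X-linked Drosophila melanogaster gene for a forkhead transcription factor. Of the 4492 Groucho sites of the embryo that passed the authors' reproducibility step, 12 lay in this gene or within 5 kb of it. It was chosen by this number of sites, so its count and the heights of its sites are given as a description and carry no test. Sites were mapped by ChIP-seq in 1 group of embryos. Its 2 biological replicates carry the numbers 1 and 3. The embryos were whole, of mixed sex and aged 0 to 24 h, and came from a transgenic line that expresses gro with GFP at its C-terminus; anti-GFP antibody was used for the precipitation. The labels do not say what drives the transgene, all embryonic cell types and stages are mixed, and no precipitate of untagged embryos was analysed here.

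The sites counted are the regions that passed the authors' irreproducible discovery rate (IDR) step, called IDR peaks here, and each is placed by its summit. IDR peaks are a subset of 30000 regions from both replicates pooled, called pooled regions here. The authors label that list as peaks and background given to the IDR step. A pooled region that is not an IDR peak may therefore be background. Another list holds 30000 regions for each replicate alone. Heights are the authors' signal values, whose scale is not stated; pooled and replicate signals may differ in scale and are named separately. The files hold no read counts, so depth is unknown.

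Groucho is a corepressor without a DNA-binding domain that is brought to its targets by DNA-binding repressors, among them Hairy, the E(spl) proteins, Engrailed, Brinker, Capicua and, when Wnt signalling is off, Tcf. Forkhead factors bind DNA through a winged-helix domain. CHES-1-like is the fly relative of the mammalian checkpoint suppressor FOXN3 and of FOXN2. In the fly embryo it acts together with another forkhead factor, Jumu, in the specification and division of cardiac progenitors. There it acts upstream of the Wnt receptor gene fz, the FGF receptor gene htl and the mitotic kinase gene polo. Some forkhead factors, Sloppy paired among them, recruit Groucho themselves.

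The gene runs leftwards on the X from 7709385 to 7682338 in dm6, a span of 27048 bp. Its 4 annotated transcripts start at different first exons, which lie 0, 4422, 12681 and 14467 bp along the gene, and all 4 splice to a shared exon 2 that begins 19389 bp from the first start. The start codon is in exon 2, so the 71.7% of the span that precedes it holds noncoding first exons and introns. All 11 IDR summits inside the gene lay in that 5′ part, and 0 lay in the 7659 bp from exon 2 to the 3′ end, where 1 pooled region of signal 40.3 was found in the 3′ UTR. The remaining site, the last of the 12, lay 3280 bp past the 3′ end. The sites are numbered 1 to 12 from the 5′ end of the gene.

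**Figure D1:**
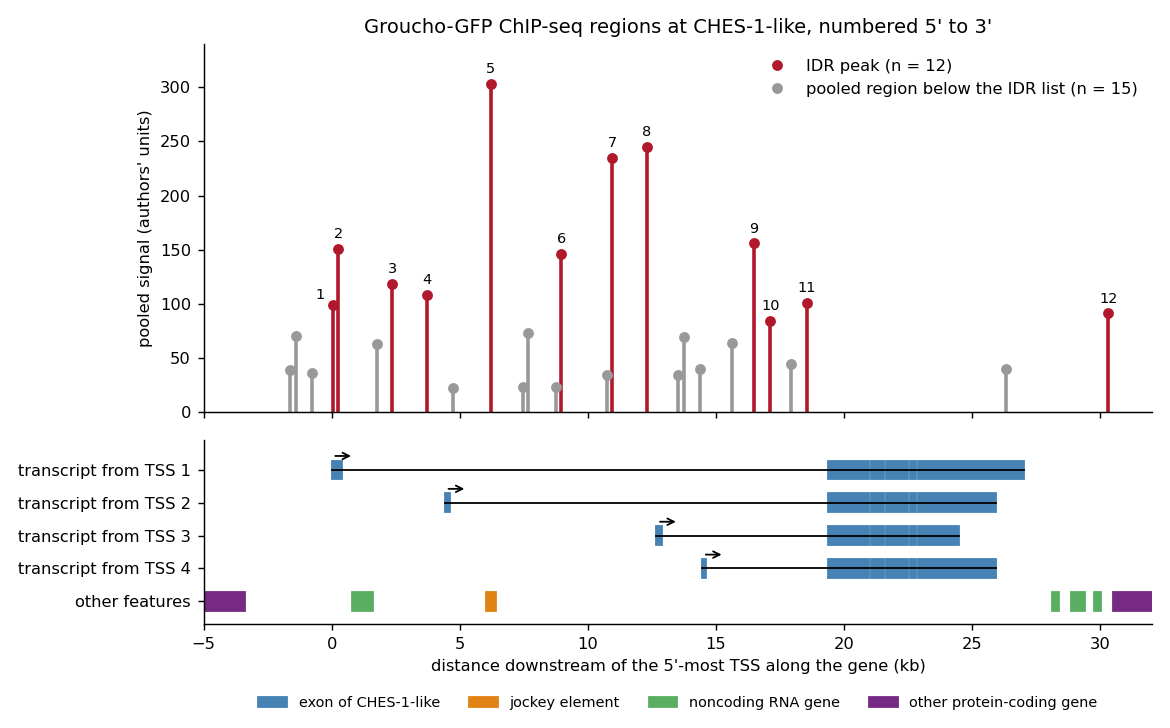
Pooled signal (authors' units) of the 12 IDR peaks (red) and of the 15 pooled regions that are not IDR peaks (grey) in CHES-1-like or within 5 kb, against distance in kb from its 5′-most transcription start; the lower panel shows the 4 transcripts (exons blue), the jockey element and neighbouring genes. The 11 peaks inside the gene lie upstream of exon 2, and the highest, of signal 303, stands over the jockey element.

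The sequences below show the 3 highest sites (5, 7 and 8) and those intronic sites whose window held a match to a motif searched (5, 6 and 11). Each holds the summit base with 50 bases on either side, written 5′ to 3′ on the strand of the gene (the minus strand), from RefSeq Release 6, which is dm6; capitals mark the matches.
Site 5, chrX:7703119-7703219: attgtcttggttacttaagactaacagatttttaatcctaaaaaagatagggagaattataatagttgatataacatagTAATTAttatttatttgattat
Site 6, chrX:7700366-7700466: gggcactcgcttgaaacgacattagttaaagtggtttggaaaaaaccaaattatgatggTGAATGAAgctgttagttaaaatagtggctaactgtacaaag
Site 7, chrX:7698388-7698488: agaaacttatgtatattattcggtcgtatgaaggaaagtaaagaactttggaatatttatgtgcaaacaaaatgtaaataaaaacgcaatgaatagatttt
Site 8, chrX:7697026-7697126: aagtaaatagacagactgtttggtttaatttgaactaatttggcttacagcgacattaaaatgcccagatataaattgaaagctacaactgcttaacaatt
Site 11, chrX:7690777-7690877: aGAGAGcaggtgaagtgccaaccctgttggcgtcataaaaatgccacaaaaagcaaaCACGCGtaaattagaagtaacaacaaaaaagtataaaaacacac

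Sites 1 and 2 lay at the 5′-most promoter and overlapped each other. Site 1 (7709112 to 7709521) had its summit 68 bp and site 2 (7708913 to 7709322) 267 bp downstream of the transcription start (TSS), both in the noncoding first exon, and the pooled signals were 99.2 and 151. In replicate 1 they were separate regions, with signals of 42.2 at site 1 and 69.3 at site 2. Replicate 3 held a single region across both, with a signal of 86.7 and its summit between the other two, so the pair stands for 2 sites in one replicate and 1 in the other.

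Sites 3 and 4 lay in the first intron, between the first and the second TSS. Site 3 (7706817 to 7707226) had a pooled signal of 118 and replicate signals of 27.8 in replicate 1 and 93.4 in replicate 3. That is 60.6 ± 46.3 (SD, n = 2), and in replicate 1 the region ranked 9451, outside the 4492 highest of that list. The nearest TSS was 753 bp away and belongs to a nested noncoding RNA gene, lncRNA:CR43287. Site 4 (7705451 to 7705860) lay 693 bp upstream of the second TSS, with a pooled signal of 108 and replicate signals of 44.7 in replicate 1 and 63.3 in replicate 3 (54.0 ± 13.2, SD, n = 2).

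Site 5 (7702964 to 7703373) was the highest of the gene. Its pooled signal of 303 ranked 221 among the 4492 IDR peaks, and the replicate signals were 107 in replicate 1 and 198 in replicate 3 (152 ± 64.5, SD, n = 2), the highest of the 12 sites in both. The summit lay in intron sequence 1794 bp downstream of the second TSS and inside an annotated transposable element, jockey{}80 (7702962 to 7703340), a non-LTR retrotransposon annotation 379 bp long. Of the 410 bp of the peak, 377 lay in the element and 33 outside it. The bases printed for site 5 matched the genome 72 times at 90% identity or more over at least 80 bp, whereas each of the other 11 windows matched once.

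Groucho sites in transposable elements were few. Of all IDR summits, 6 lay in 1 of the 5809 annotated elements (0.134%), which cover 5.93% of the chromosome arms. Pooled summits, background included, were also few there: 202 of 30000 (0.673%). Why both shares were low was not tested. Site 5 was the highest of the 6 IDR peaks, and the next were in INE-1 elements, at signals of 251 and 156. Of 96 annotated jockey copies, 3 held a pooled summit and jockey{}80 alone held an IDR summit. How reads with several matches were aligned is not given in the sources used here, and the part of repeated sequence in the height of site 5 was not tested. Without summits in elements, CHES-1-like has 11 IDR summits.

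Sites 6, 7 and 8 lay in the stretch that leads to the third TSS, and sites 8 and 7 were the highest of the gene after site 5. Site 7 (7698294 to 7698523), 1734 bp upstream of that TSS, had a pooled signal of 235 and replicate signals of 81.2 in replicate 1 and 148 in replicate 3 (115 ± 47.6, SD, n = 2). At site 8 (7696998 to 7697224), 372 bp upstream of that TSS, the pooled signal was 245. Its replicate signals were 49.5 in replicate 1 and 175 in replicate 3 (112 ± 88.4, SD, n = 2), the widest spread of the 12. Replicate 1 held a second region over site 8 with a signal of 80.3 and a summit 104 bp away, and with that region the ratio of replicate 3 to replicate 1 is 2.17 in place of 3.53. Site 6 (7700211 to 7700620), 3712 bp upstream of the TSS, had a pooled signal of 146 and replicate signals of 52.3 and 96.7 in replicates 1 and 3. Sites 7 and 8 were narrow, at 230 and 227 bp, and the other 10 were 410 bp wide.

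Sites 9, 10 and 11 lay in the last part of the intron, downstream of the fourth TSS and toward exon 2. Site 9 (7692691 to 7693100) had a pooled signal of 156, with 56.6 in replicate 1 and 100.4 in replicate 3 (78.5 ± 31.0, SD, n = 2). Site 10 (7692048 to 7692457) had the lowest pooled signal of the 12, 84.3, and site 11 (7690622 to 7691031), 831 bp before exon 2, had 100.6. These were the only 2 of the 12 sites with the higher signal in replicate 1. Site 10 had 49.3 in replicate 1 and 36.2 in replicate 3, and site 11 had 59.7 in replicate 1 and 44.8 in replicate 3.

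Site 12 (7678853 to 7679262) stood apart from the rest, 11769 bp from site 11. It lay 199 bp past the 3′ end of the neighbouring gene ct, which encodes the homeodomain protein Cut, and 563 bp from the TSS of lncRNA:CR45667, so it counts for ct as well. Its pooled signal was 91.3 and its replicate signals were 41.6 in replicate 1 and 44.9 in replicate 3 (43.3 ± 2.38, SD, n = 2), the closest agreement of the 12 sites. On the other side, the 3′ end of CG15478 lies 3398 bp upstream of the gene, and that gene shares sites 1 and 2 within its own 5 kb. Outside this window the next IDR summits were 63975 bp from the 3′ end and 25268 bp from the 5′ end of CHES-1-like.

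**Figure D2:**
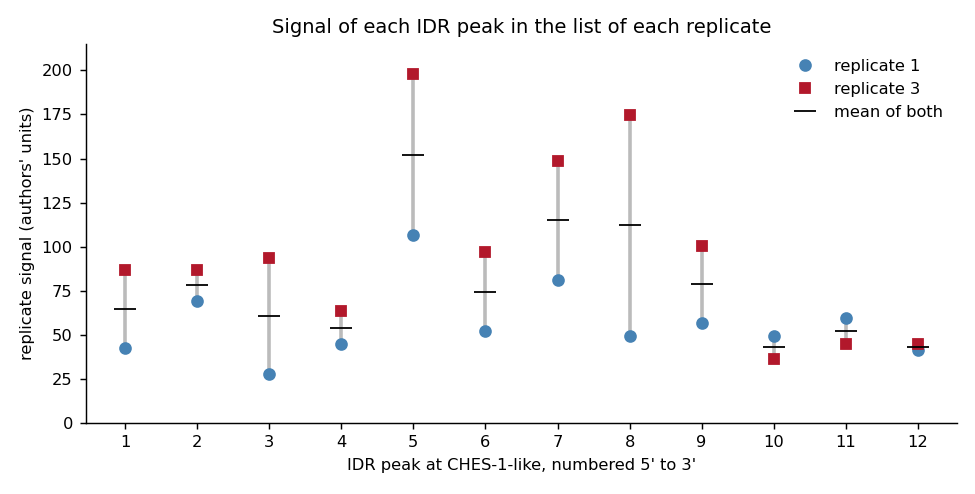
Signal (authors' units) of each of the 12 IDR peaks at CHES-1-like in replicate 1 (circles) and replicate 3 (squares), with the mean of both as a bar and the sites in 5′ to 3′ order. Replicate 3 is higher at 10 sites and replicate 1 at sites 10 and 11; sites 1 and 2 share 1 region in replicate 3.

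Replicate signals at the gene ran from 27.8 to 107 in replicate 1, with a median of 50.9, and from 36.2 to 198 in replicate 3, with a median of 90.03. The ranges of both replicates overlap. The ratio of replicate 3 to replicate 1 had a median of 1.80 over the 12 sites, against 1.17 over the 4473 IDR peaks found in both, of which 63.9% were higher in replicate 3; the 10th percentile of those peaks was 0.666 and the 90th was 1.91. Site 3 (3.35) and site 8 (3.53) were above the 98th percentile of that spread, and sites 10 (0.735) and 11 (0.749) were near the 15th. When the highest overlapping region was taken in place of the nearest, a match added after seeing the data, the median was 1.60 and 10 sites were still higher in replicate 3. The sites share both libraries, so their ratios are not independent of one another. In the 4492 highest regions of a single replicate, the gene with 5 kb held 12 in replicate 3 and 11 in replicate 1. These are not all matched to IDR peaks. Of the 12 sites, 9 had their matched region among the 4492 highest of replicate 1 (all but sites 1, 3 and 12). In replicate 3, 11 did (all but site 10). Every pooled summit of the 12 lay inside a matched region of both replicates, with a median shift of the summit of 2.5 bp in replicate 1 and 40.5 bp in replicate 3.

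The 4 promoters of the gene differed in how close a site lay. The first TSS had IDR summits at 68 and 267 bp and the third had 1 at 372 bp upstream. Within 500 bp of the second TSS there was a pooled region of signal 22.4, 308 bp downstream, which was matched in replicate 1 alone. Within 500 bp of the fourth there was a pooled region of signal 39.9, 82 bp upstream, matched in replicate 3 alone. Neither of those regions was an IDR peak, and either may be background. The nearest IDR summits were 693 bp from the second TSS and 2022 bp from the fourth.

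By class, 3 of the 12 summits were within 500 bp of a TSS, 8 were in introns and 1 was intergenic. Over all IDR peaks 62.6% were near a TSS and 27.1% in introns. The 8 intronic sites had a median pooled signal of 132, against 114 for all 1216 intronic IDR peaks. Of the 12 sites, 7 were above the median signal of the whole IDR list, 116. Sites 5, 8, 7 and 9 were the highest, at ranks 221, 374, 414 and 1119 of 4492, and sites 12 and 10 the lowest, at ranks 3619 and 4135.

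Inside the gene, neighbouring IDR summits were 199 to 4180 bp apart, with a median of 1702 bp over 10 gaps, against 8438 bp over all 4486 gaps between IDR summits on the arms. The 11 sites thus form an unbroken run in which each gap is under 5 kb, over 18490 bp. When all IDR summits were joined into such runs, a rule set after seeing the data, 2782 runs resulted with a median of 1 summit. Only 1 run held more than the 11 of CHES-1-like: a run of 17 over 40001 bp on 2L, which overlaps chinmo, a zinc-finger gene of neuronal identity, with RFeSP and CG14352. The run in CHES-1-like overlaps no other protein-coding gene.

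Beside the IDR peaks, the window held 15 pooled regions below the IDR list, with signals from 22.4 to 73.3. The lowest IDR peak of the gene (84.3) and the highest region left out (73.3) lie on either side of the lowest signal in the IDR list, 80.6. Thus 12 of 27 pooled regions at the gene were IDR peaks (44.4%), where 14.97% of all pooled regions were. Both shares are taken over a list that includes background. The region left out at 73.3 lay in the intron between sites 5 and 6, and others of 70.8, 69.9, 64.1 and 63.0 lay upstream of the first TSS, near the fourth TSS, downstream of that TSS and at lncRNA:CR43287.

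CHES-1-like held more IDR summits than any of the 370 other protein-coding genes of like span (21663 to 33781 bp). Without summits in transposable elements, an alternative added after seeing the data, it had 11, and 1 of the 370, msn, had as many. CHES-1-like also had 11 when summits within 200 bp were counted once, a setting not compared across the other genes. With all summits counted, the 370 genes had a median of 1 summit in the gene or within 5 kb, 137 of them had 0, and the highest count was 11. Inside the span alone the count was 11 at CHES-1-like, with a median of 0 and a maximum of 8 at the others. Of these genes 65 have at least 4 TSSs, as CHES-1-like does, with a median of 2 summits and a maximum of 8. For pooled regions CHES-1-like had 27, the others had a median of 9, and 29 of them had as many or more. Among the 180 of these genes with at least 10 pooled regions, the share that were IDR peaks had a median of 13.7% and reached 41.7%. These ranks describe the choice of the gene and are no test of it.

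**Figure D3:**
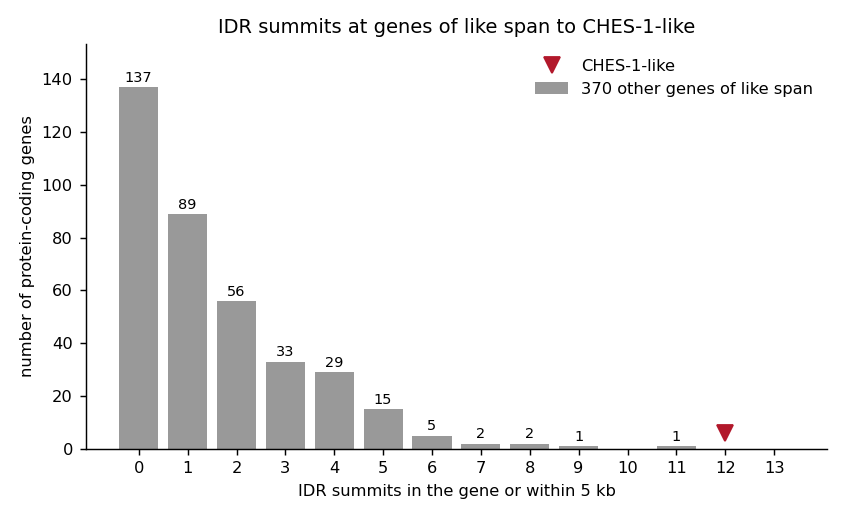
Number of protein-coding genes (vertical axis) by IDR summits in the gene or within 5 kb, for CHES-1-like (triangle, 12 summits) and the 370 other genes of like span (bars, labelled with their number). Of those 370 genes 137 have 0 summits and 1 has 11.

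The genes of like span with most sites are of several kinds. The kinase gene msn, which acts in JNK signalling, had 11 summits, 8 of them inside the span. CG5953 had 9, with 4 inside the span. The adducin gene hts and the bHLH factor gene crp had 8 each, with 4 inside the span at hts and 7 at crp. REPTOR, a transcription factor gene of the TORC1 response, and simj, which encodes a NuRD complex subunit, had 7 each. The genes Ptpmeg2, a tyrosine phosphatase gene, trx, dnr1 and chn, a zinc-finger gene, had 6 each, as did the nuclear receptor gene Hnf4. Hnf4 falls outside the 10 genes described by rule, in which ties are settled by the higher top signal, and it was added after its values were seen. The highest pooled signal of CHES-1-like was 303, and those of the 11 genes were between 145 at Hnf4 and 442 at Ptpmeg2.

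Over all 13945 protein-coding genes, 0.0574% had at least as many IDR summits as CHES-1-like, that is 8 genes with itself. The other 7 were sbb with 16, Eip75B, shn and ush with 13, and CG1677, Raf and tara with 12, and all 7 are longer. Per 10 kb of gene with flanks, CHES-1-like had 3.24 summits, tara 2.69, Raf 2.05, shn 1.90, sbb 1.80, ush 1.75, Eip75B 1.05 and CG1677 0.891.

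The sequence at the sites was poor in G and C. GC content of the windows, cut as in the sequences printed above, ran from 20.8% at site 5 to 43.6% at site 12, with a median of 32.2%, and 10 of the 12 were below the median of all IDR windows, 40.6%. The 8 intronic windows of the gene had a median of 29.7%, against 36.6% over all intronic IDR windows. Only 36 IDR windows (0.801%) were as low as site 5, in the jockey element, or lower.

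The 12 windows were searched on both strands for matches to 13 motifs. The printed sequence of site 6 holds TGAATGAA, the Capicua motif, from 9 bases past the summit; 0.801% of all IDR windows held it. Site 11 holds CACGCG, a motif of Hairy and its relatives, which 3.34% of all windows held, and GAGAG, the GAGA factor motif, which 15.1% held. The window of site 2 holds CAGGTA, the Zelda motif (1.69% of all), and site 5 holds TAATTA, a homeodomain motif (6.19% of all). The other 8 windows held none of the 13. Thus 4 of the 12 windows held at least 1 motif, against 46.5% of all IDR windows. Of the 8 intronic sites 3 did, against 47.1% of all intronic IDR windows. With 12 and 8 windows these shares rest on small counts, and the differences were not tested.

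No window at CHES-1-like held the exact bases TAAACA, the only forkhead motif searched, which 13.9% of all IDR windows held. Variants of that sequence were not searched, so forkhead sequence in other forms may be present. The other motifs without a match were TATCGATA (the DRE, 3.81% of all windows), CACGTG (the Hairy E-box, 1.36%), GTGGGAA (Su(H), 1.07%), CTTTGA (Tcf, 5.01%), GGCGCC (Brinker class, 2.11%), AACCACA (Runt, 1.02%) and GGTCACAC (the core of motif 1, bound by M1BP, 2.36%). Among these, M1BP and the DRE are mostly known from promoters. Sites 7 and 8, the highest after site 5, had no match to any of the 13.

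Among the forkhead genes, CHES-1-like held 12 IDR summits and 5 of the 16 others held any in the gene or within 5 kb (31.3%), against 49.4% of all protein-coding genes. The insulin-responsive factor gene foxo, of like span at 31034 bp, had 5, with 2 inside the span and a highest pooled signal of 291. Then came FoxK, with 3 and 150, and jumu, the cardiac partner of CHES-1-like, with 3 and 144. The segmentation gene slp2 had 1 at 195, and bin, which acts in the visceral mesoderm, had 1 at 103. The other 11 had 0: fkh, slp1, croc, FoxP, FoxL1, fd3F, fd59A, fd96Ca, fd96Cb, fd102C and CG32006. The 16 genes had a median span of 3301 bp, against 2166 bp over all protein-coding genes. Within 1 kb of a TSS, 3 of the 16 (18.8%) had a summit, namely foxo, FoxK and jumu, against 25.9% of all genes.

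Genes that act with CHES-1-like in cardiac progenitors, or in the heart gene network, held sites in part. Of 26 such genes, 14 (53.8%) had an IDR summit in the gene or within 5 kb, a share near the 49.4% of all genes, and 8 (30.8%) had one within 1 kb of a TSS, against 25.9% of all genes. Their median span was 10339 bp, against 2166 bp over all genes. Of the genes placed downstream of CHES-1-like and Jumu, fz, which is 94297 bp long, had 4 summits, with a highest signal of 125, and polo had 2 with 162; htl had 0. The GATA cofactor gene ush had 13 summits, with a highest signal of 1892, the ETS factor gene pnt 7, with a highest signal of 155, and the muscle factor gene Mef2 6, with 710. Ras85D had 3, with a highest signal of 231, tin, a homeobox gene of heart specification, had 2 with 113, and the LIM-homeodomain gene tup had 2 with 160. Single summits were found at the Tcf gene pan (178), the bHLH gene Hand (156), lbl (95.7), the BMP gene dpp (91.2) and the FGF adaptor gene stumps (86.9). The summits of tup, lbl and stumps lay in the flanks, outside the gene span, and that of dpp lay inside it. The T-box genes mid, H15, Doc1, Doc2 and Doc3, and eve, svp, pnr, lbe, bap and arm had 0.

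**Figure D4:**
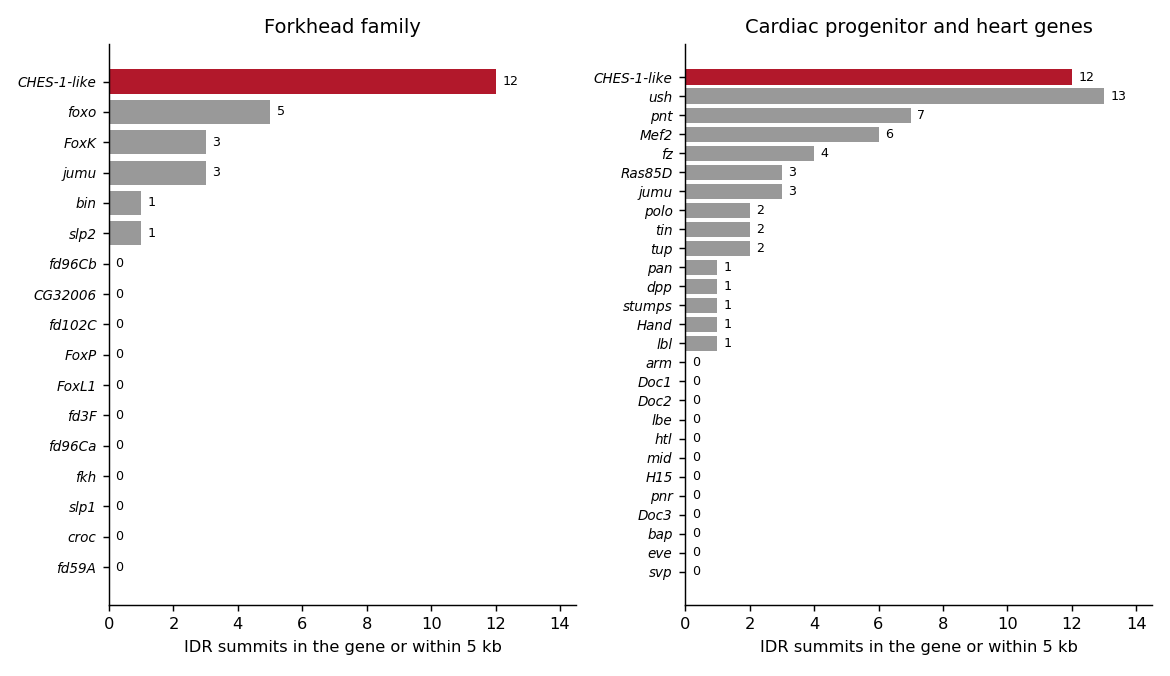
IDR summits in the gene or within 5 kb (horizontal axis) for CHES-1-like (red) and 16 other forkhead genes (left), and for CHES-1-like (red) and 26 cardiac progenitor and heart genes (right). Of the forkhead genes foxo is next with 5, and of the heart genes ush has 13.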

How the data were processed

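Regions of 2 biological replicates were analysed. Per the deposited manifest, the authors called regions on each replicate's dm6 alignment and on both pooled, with a control alignment not analysed here, and derived 1 optimal IDR list. The sources used here name no aligner, peak caller, setting or IDR threshold. Each signal value is the authors' own, with no stated scale. The deposited column of −log10 q values is at its maximum of 3.74 in 61.1% of IDR peaks, so sites were ranked by signal. Lists in dm3 were not used. Gene models were those of Ensembl release 115 and sequence came from RefSeq Release 6. Positions are counted from 1.

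A summit was assigned to a gene when it lay in its span or within 5 kb. Replicate regions were matched by at least 1 bp of overlap, taking the nearest summit. Copies of a window were counted with blastn 2.17.0 (e-value limit 1e-05). Python 3.11.15 and pandas 2.3.3 were used, and the counting functions were tested on planted sites. The genes described were CHES-1-like, its neighbours, the 10 genes of like span with most summits (ties by the higher top signal), Hnf4, which ties with the last of them, and members of 2 gene lists. One of 18 forkhead symbols repeated another. The gene, lists, motifs and rules were chosen with earlier results of these data known, so no result was tested. Replicates were left out in turn; other alternatives are given at the end.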

Additional observations from a re-analysis of the deposited data

How the results depend on the processing

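Of 38 alternative values for 8 results, 32 stayed close to the reported one. Close meant within 1.5 times for counts and within 1 SD between replicates for signals. For the share of like-span genes with fewer summits, it meant inside the Wilson 95% interval of 99.0 to 100%. That interval serves only as a limit of closeness and is no test, because the gene was chosen for its count. The IDR summits at CHES-1-like numbered 7 above the median signal of the IDR list, an alternative that keeps fewer peaks by construction. Leaving out 1 replicate meant using the list of the other alone, with its 4492 highest regions in place of the IDR list. At the gene this gave 11 to 12 such regions, and 25 to 31 regions of the whole replicate list in place of 27 pooled regions. They are not all the same sites: 9 of the 12 IDR sites had their matched region among the 4492 highest of replicate 1, and 11 in replicate 3. It also gave 2 to 4 summits near a TSS and 4 to 6 windows with a motif. A summit was then found at 6 to 7 forkhead genes and 14 to 18 heart genes. Mean replicate signal over the 12 sites was 77.3, and 56.7 to 97.8 with either replicate alone. With 2 replicates, each value alone lies within 1 SD of their mean by construction. Both are counted as close but could not have moved. Summits near a TSS numbered 1 with a limit of 250 bp and 6 with 1000 bp, against 3. Within 1 kb of a TSS 3 forkhead genes and 8 heart genes had a summit. With 25 bp on each side, 2 windows held a motif, against 4. For the count against genes of like span, 100% had fewer summits under most settings; 2 of 1226 genes within 2 times the span had as many or more, as did 1 of 370 once summits in transposable elements were left out, a setting added after seeing the data. RefSeq gave equal coordinates and 4 starts. Depth is unknown, and no interval for it can be given. No paired analysis was possible because there is 1 group.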
